A study of Homo sapiens with 6 samples.

Results

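The mitochondrial fatty acid oxidation enzymes described here are 10 genes chosen by name: *CPT1A*, *CPT2*, *SLC25A20*, *ACADM*, *ACADVL*, *HADHA*, *HADHB*, *ECHS1*, *ACAA2* and *ETFDH*. Each symbol matched 1 of the 61806 human Ensembl genes in the deposited count table, and all 10 passed the filter on low counts that left 19149 genes for testing. RNA sequencing was performed on MV4-11, a human line of acute myeloid leukemia (AML) with an *FLT3*-ITD mutation. 3 libraries carried a control shRNA (shNC 1 to 3), and another 3 were labelled as carrying an shRNA against *ATGL*, the lipase that releases fatty acids from stored triglyceride (shATGL 1 to 3). All 6 libraries shared the same cell line and no drug treatment was named for any of them. The sources used here give neither the shRNA sequence carried by each library nor the time after its delivery. Nothing in the labels said whether the libraries of a group came from separate cultures, so the p-values below measure only the spread between these libraries.

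Fatty acids are burned in mitochondria after they have been linked to coenzyme A. Long chains enter through the carnitine shuttle, and each round of beta-oxidation then shortens them through a dehydrogenation, a hydration, a second dehydrogenation and a thiolytic cleavage, which yields acetyl-CoA and reduced electron carriers. In AML, leukemic blasts are known to draw on fatty acid oxidation for energy, and *ATGL* releases part of the substrate. The comparison asks whether transcripts of the pathway differed between the groups.

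Between 59674064 and 74808280 reads were counted per library, and each of the 10 genes held between 1242 and 43675 counts in every library. Levels are given as CPM, counts scaled to a common library size after TMM normalization. The 10 marker genes of a myelomonocytic AML line were all detected at a mean of at least 1 CPM, with summed levels of 1662 to 1724 CPM in shNC and 1612 to 1633 CPM in the libraries labelled shATGL. The markers of T cells, erythroid cells, epithelial cells and adipocytes were each under 1 CPM, and of the 3 stromal markers the receptor gene *PDGFRB* alone was above it. *PNPLA2*, the gene symbol of *ATGL*, measured 101, 97.0 and 107 CPM in shNC 1, 2 and 3, against 102, 98.1 and 104 CPM for the libraries labelled shATGL 1, 2 and 3. The groups overlapped (log2 fold change −0.01 with a standard error, SE, of 0.06 and a 95% confidence interval, CI, from −0.15 to 0.14; edgeR quasi-likelihood adjusted p = 0.979). A lower level of the targeted transcript was thus not detected in the libraries labelled shATGL, and every direction below is that of the labels. In bulk RNA, fewer expressing cells and less RNA per cell cannot be told apart.

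Calls required both an adjusted p-value below 0.05 and a change of 2-fold or more. By that rule 0 of the 10 genes was called, while 1 of the 19149 tested genes (0.00522%) passed. Of the 10, 3 (*ACADM*, *ACADVL* and *ETFDH*) had a log2 fold change above 0 in the libraries labelled shATGL and the other 7 had one below 0. Their median was −0.09, against 0.01 for all genes tested, and the values went from −0.15 to 0.19. None had an adjusted p-value under 0.05 with edgeR or with DESeq2, which gave one to 0.41% of the 17806 genes it adjusted. At an unadjusted p-value under 0.05 with edgeR there were 2, *HADHA* and *HADHB*, next to 11.7% of all genes tested. In 4 of the 10 the CPM values of the groups did not overlap, with *ACADVL* higher and *HADHA*, *HADHB* and *ACAA2* lower in the libraries labelled shATGL, and 17.3% of all genes tested were separated in this way (7.93% higher and 9.38% lower). The summed level of the 10 genes was 1712 ± 20.3 CPM in shNC and 1655 ± 9.93 CPM for the libraries labelled shATGL (SD, n = 3 each). Without *HADHA*, which held between 31.4% and 35.5% of that sum, the sums were 1118 ± 2.84 and 1121 ± 20.4 CPM (SD, n = 3 each).

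**Figure D1:**
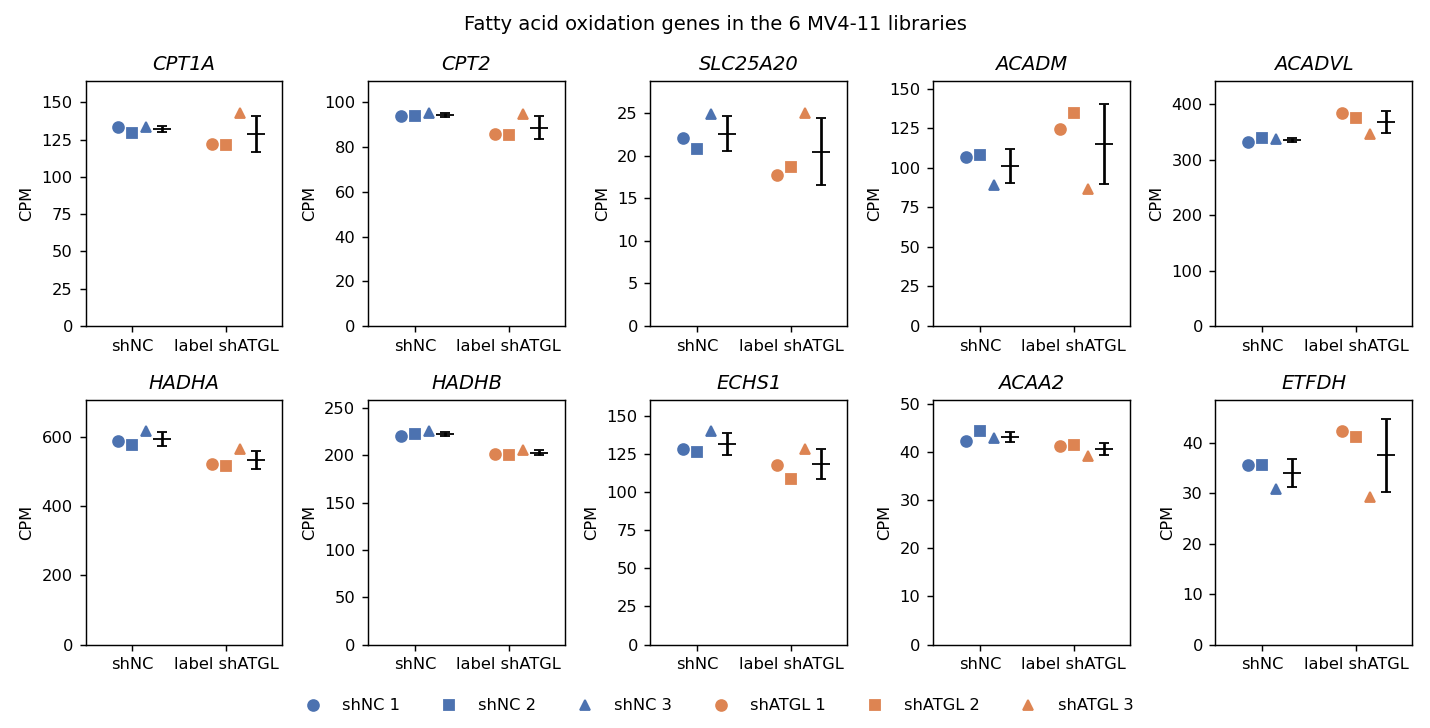
CPM (vertical axes, from 0) of the 10 genes in each library, with shNC in blue, the libraries labelled shATGL in orange and 1 marker shape per library number; black bars give the mean and SD of 3 libraries. *HADHA*, *HADHB*, *ACAA2* and *ACADVL* show groups that do not overlap, and in the other 6 panels shATGL 3 lies within or past the shNC values.

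*HADHA* and *HADHB* encode the alpha and beta subunits of the mitochondrial trifunctional protein, which sits on the inner membrane and carries out the last steps of each round on long chains. The alpha subunit holds the hydratase and the dehydrogenase activity, and the beta subunit the thiolase. The genes lie head to head on chromosome 2. In GENCODE 29 on GRCh38, *HADHA* (ENSG00000084754) runs from 26190635 to 26244726 on the minus strand and *HADHB* (ENSG00000138029) from 26243170 to 26290468 on the plus strand, and no exon base is shared. In RefSeq, their start sites lie 307 bases apart. The promoter windows of the pair, which reach from 250 bases before to 50 bases after each start site, share the 194 bases at chr2:26244689-26244882, with a GC content of 68.6%. This stretch is shown because both members that passed the unadjusted threshold start next to it, on opposite strands. It is read on the plus strand of GRCh38.p14, 5′ to 3′, and capitals mark its only match to the searched motifs, a GC box on the minus strand.

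HADHA/HADHB shared window: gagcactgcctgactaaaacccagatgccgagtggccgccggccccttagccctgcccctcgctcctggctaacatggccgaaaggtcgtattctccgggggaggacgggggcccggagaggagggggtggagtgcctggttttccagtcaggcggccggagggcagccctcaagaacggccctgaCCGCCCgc

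Of the 35116 RefSeq promoter windows, 16.3% overlapped a window on the opposite strand. The GC box, GGGCGG on either strand, was found in 7 of the 10 windows of the 9 genes with an entry, of which *ACADVL* has a pair, and in 45.0% of all windows. The windows of *HADHA* and *HADHB* are both among the 7, and the GC box of their shared stretch counts for each. The nuclear receptor half-site AGGTCA was in none of the 10 windows and in 13.8% of all windows, and AAGGTCA, the longer half-site known from ERR receptors that contains it, was in 0 and in 3.92%. TGCGCA, the core of NRF1 sites, was likewise in 0 member windows (8.24% of all), as were CCAAT (34.6%) and the E-box CACGTG (7.26%). These counts describe the letters of windows of 300 bases and say nothing about the factors.

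*HADHA* measured 589, 577 and 616 CPM in shNC 1, 2 and 3, against 522, 517 and 564 CPM for the libraries labelled shATGL 1, 2 and 3. The libraries labelled shATGL all lay below the lowest shNC library, with shATGL 3 the nearest to it. The group means were 594 ± 19.8 and 534 ± 25.9 CPM (SD, n = 3 each), for a log2 fold change of −0.15 (SE 0.06, 95% CI −0.29 to −0.02, edgeR adjusted p = 0.400). *HADHB* measured 220, 223 and 225 CPM in shNC, against 202, 201 and 206 CPM for the libraries labelled shATGL. This was the tightest gene of the set within the libraries labelled shATGL, with a coefficient of variation of 1.40%, and its groups were again separate (log2 fold change −0.13, SE 0.05, edgeR adjusted p = 0.399). The exact permutation test over the 20 relabellings of 3 against 3 gave p = 0.1 for each of the pair, the smallest value it can give. *ACADVL* and *ACAA2* had the same value, as has any gene whose groups do not overlap.

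The proportion of the pair overlapped between the groups. A ratio of counts within a library does not depend on how the libraries are scaled. *HADHA* had 2.68, 2.59 and 2.73 times the counts of *HADHB* in shNC 1, 2 and 3, and 2.59, 2.57 and 2.74 times in the libraries labelled shATGL. The log2 ratio differed by −0.02 (SE 0.04, exact permutation p = 0.6, adjusted p = 0.8 over the 4 ratios compared), and the number 3 library had the highest ratio in each group. Among the 10 genes, the pattern over the libraries of *HADHA* was nearest to that of *HADHB*, with a root mean square difference of 0.0372 between their deviations on the log2 scale. This likeness was not particular to the pair. *CPT2* and *ECHS1*, on other chromosomes, also had *HADHA* as their nearest member, at 0.0386 and 0.0412. Processed copies of both genes exist elsewhere in the genome and held few counts: at most 44 on *HADHAP2*, 11 on *HADHAP1* and 10 on *HADHBP1*.

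The acyl-CoA dehydrogenases open each round of oxidation. *ACADVL* (ENSG00000072778, chromosome 17 from 7217125 to 7225273, plus strand) encodes the enzyme for very long chains and *ACADM* (ENSG00000117054, chromosome 1 from 75724347 to 75787575, plus strand) the one for medium chains, whose loss causes the common inherited defect of this pathway. *ACADVL* measured 332, 339 and 338 CPM in shNC 1, 2 and 3, against 384, 375 and 346 CPM for the libraries labelled shATGL. It was the only gene of the set whose libraries labelled shATGL all lay above the shNC libraries. The group means were 336 ± 3.72 and 369 ± 19.8 CPM (SD, n = 3 each), for a log2 fold change of 0.13 (SE 0.06, 95% CI −0.003 to 0.27, edgeR adjusted p = 0.431). The start of the gene overlaps *DLG4*, a scaffold protein gene on the opposite strand, over 85 exon bases, and *DLG4* had a log2 fold change of 0.23 (edgeR adjusted p = 0.396). As the strand setting of the counting was not given, reads falling there cannot be assigned to one of the pair with certainty, and their part in the result was not tested.

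*ACADM* measured 107, 108 and 88.9 CPM in shNC 1, 2 and 3, against 125, 135 and 86.8 CPM for the libraries labelled shATGL. The groups overlapped, as shATGL 3 was the lowest of the 6 libraries and shNC 3 lay beside it. The libraries differed by 1.55 times between the highest and the lowest, more than for any other of the 10 genes, and the log2 fold change of 0.19 had a wide interval of −0.19 to 0.56 (SE 0.16, edgeR adjusted p = 0.656). *RABGGTB*, which lies on the same strand and shares 157 exon bases with the end of *ACADM*, measured 50.3, 53.8 and 45.7 CPM in shNC, against 62.3, 61.9 and 42.8 CPM for the libraries labelled shATGL, and its number 3 library was likewise the lowest of each group. How many reads of the pair were shared was not tested. *ACADVL* had 3.11, 3.13 and 3.80 times the counts of *ACADM* in shNC 1, 2 and 3, and 3.08, 2.78 and 3.99 times in the libraries labelled shATGL. Both number 3 libraries had the high ratio, and the groups overlapped (difference of the log2 ratio −0.04, SE 0.18, exact permutation p = 0.8, adjusted p = 0.8 over the 4 ratios).

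*ETFDH*, the inner membrane enzyme that passes electrons from these dehydrogenases to ubiquinone, had a pattern over the libraries like that of *ACADM*. It is ENSG00000171503, on chromosome 4 from 158672125 to 158709623, plus strand. *ETFDH* measured 35.6, 35.5 and 30.7 CPM in shNC 1, 2 and 3, against 42.2, 41.1 and 29.2 CPM for the libraries labelled shATGL. The number 3 libraries were the lowest of their groups for both genes, and *ACADM* was the member nearest to *ETFDH* in pattern (root mean square difference 0.06). The log2 fold change was 0.14 (SE 0.15, 95% CI −0.20 to 0.49, edgeR adjusted p = 0.704). Its exons overlap those of *C4orf46* over 131 bases and of *PPID* over 490 bases, both on the opposite strand, and these had log2 fold changes of −0.18 and 0.03 (edgeR adjusted p = 0.447 and 0.895).

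The carnitine shuttle moves long-chain acyl groups into the matrix. *CPT1A* (ENSG00000110090, chromosome 11 from 68754620 to 68844410, minus strand) encodes the outer membrane transferase, the step at which malonyl-CoA restrains the pathway. *SLC25A20* (ENSG00000178537, chromosome 3 from 48856931 to 48898993, minus strand) encodes the carnitine-acylcarnitine exchanger of the inner membrane, and *CPT2* (ENSG00000157184, chromosome 1 from 53196429 to 53214197, plus strand) the transferase on its inner face. *CPT1A* measured 133, 130 and 133 CPM in shNC 1, 2 and 3, against 122, 121 and 143 CPM for the libraries labelled shATGL. The highest and the lowest library of this gene were thus both labelled shATGL, and the log2 fold change was −0.04 (SE 0.08, 95% CI −0.22 to 0.14, edgeR adjusted p = 0.869). It turned to 0.005 without shATGL 2.

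*CPT2* measured 94.1, 93.7 and 95.3 CPM in shNC, against 86.0, 85.3 and 94.7 CPM for the libraries labelled shATGL, where shATGL 3 stood among the controls (log2 fold change −0.09, SE 0.06, edgeR adjusted p = 0.585). *SLC25A20* measured 22.1, 20.9 and 24.9 CPM in shNC, against 17.8, 18.7 and 25.0 CPM for the libraries labelled shATGL. In both groups its number 3 library was the highest, and the groups overlapped (log2 fold change −0.14, SE 0.15, 95% CI −0.49 to 0.20, edgeR adjusted p = 0.706). The transferases stayed in a narrow proportion to each other. *CPT1A* had 1.42, 1.38 and 1.40 times the counts of *CPT2* in shNC and 1.42, 1.42 and 1.51 times in the libraries labelled shATGL, and the lowest ratio labelled shATGL lay just above the highest in shNC. The log2 ratio differed by 0.05 (SE 0.03, exact permutation p = 0.1, the smallest possible, adjusted p = 0.4 over the 4 ratios). *CZIB*, which overlaps the end of *CPT2* on the opposite strand over 99 exon bases, was at 27.0 to 33.7 CPM.

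The soluble matrix enzymes take over on shorter chains. *ECHS1* (ENSG00000127884, chromosome 10 from 133362480 to 133373689, minus strand) encodes the short-chain enoyl-CoA hydratase, which also acts in valine breakdown, and *ACAA2* (ENSG00000167315, chromosome 18 from 49782167 to 49813960, minus strand) a thiolase. *ECHS1* measured 129, 126 and 140 CPM in shNC 1, 2 and 3, against 118, 109 and 128 CPM for the libraries labelled shATGL. Its groups overlapped, with shATGL 3 between shNC 2 and shNC 1. The log2 fold change was −0.15 (SE 0.08, 95% CI −0.34 to 0.03, edgeR adjusted p = 0.479). *ACAA2* measured 42.2, 44.2 and 42.9 CPM in shNC, against 41.3, 41.4 and 39.1 CPM for the libraries labelled shATGL. The groups were separate by less than 1 CPM, and here shATGL 3 was the library farthest from shNC (log2 fold change −0.09, SE 0.07, edgeR adjusted p = 0.617). *ACAA2* stood at 0.192, 0.199 and 0.190 of the counts of the other thiolase gene, *HADHB*, in shNC and at 0.205, 0.206 and 0.190 in the libraries labelled shATGL, a difference of 0.05 in the log2 ratio (SE 0.04, exact permutation p = 0.4, adjusted p = 0.8 over the 4 ratios).

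shATGL 3 stood apart from shATGL 1 and 2 in most of these genes. When it was left out, the groups did not overlap in any of the 10 genes, 3 of them higher and 7 lower, while 49.0% of all genes tested were then separated. The 6 genes gained in this way were *CPT1A*, *CPT2*, *SLC25A20*, *ACADM*, *ECHS1* and *ETFDH*, of which *ECHS1* was also separated without shNC 2. Leaving out any of the other 5 libraries gave 4 or 5 separated genes of the 10, next to 25.7%, 28.5% and 23.8% of all genes without shNC 1, 2 and 3 and 23.3% and 23.2% without shATGL 1 and 2. In the fit without shATGL 3, 4 of the 10 genes had an adjusted p-value under 0.05 with edgeR, next to 14.0% of all genes in that fit (7.94% higher and 6.07% lower). *ACADM* had a log2 fold change of 0.35 (edgeR adjusted p = 0.0366), *ETFDH* of 0.29 (adjusted p = 0.0492), *ACADVL* of 0.17 (adjusted p = 0.0319) and *HADHA* of −0.20 (adjusted p = 0.0286). *SLC25A20* had −0.32, *ECHS1* −0.22 and *HADHB* −0.15 in that fit, with adjusted p-values of 0.0771, 0.0606 and 0.0572 from edgeR. With limma voom, which gives each library a weight, 3 genes passed, *ACADVL*, *HADHA* and *HADHB*, next to 10.8% of all genes (5.57% higher and 5.27% lower). The share of counts on the genes of the mitochondrial genome was 7.54%, 7.41% and 8.17% in shNC 1, 2 and 3 and 6.34%, 6.51% and 7.66% in the libraries labelled shATGL, so that shATGL 3 again stood within the shNC range. Its part in the results was not tested.

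**Figure D2:**
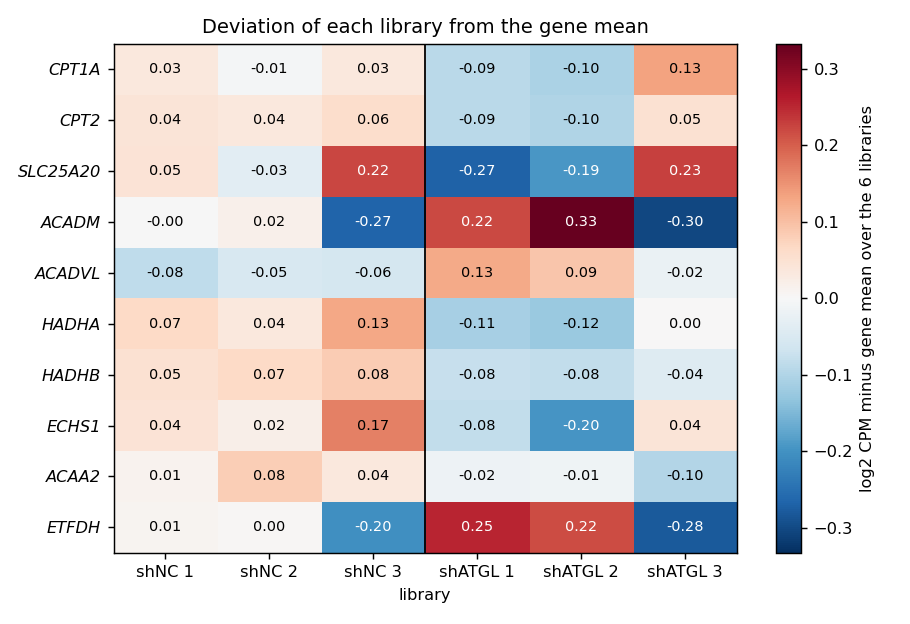
Deviation of log2 CPM of each library (columns) from the mean of the gene over the 6 libraries (rows are the 10 genes), with red above and blue below the mean and shNC left of the black line. shATGL 1 and 2 have like colors in each row, while shATGL 3 resembles shNC 3 for *SLC25A20*, *ACADM* and *ETFDH*.

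Transcript length also moved with the fold changes across the table. Over 18566 genes with an annotated length, log2 fold change and length of the longest transcript had a Spearman's rho of 0.22, where the points share the same 6 libraries. The median log2 fold change was −0.08 for transcripts of 1431 to 2439 bases, which include those of *SLC25A20*, *ACADVL* and *ECHS1*, and 0.03 for those of 3604 to 5305 bases, which include *CPT1A* and *CPT2*. *ACADVL* thus lay above the median of its length class and *CPT2* below. For transcripts of 2440 to 3602 bases the median was −0.02. Of the members in that class, *ACADM* and *ETFDH* lay above it and *HADHA*, *HADHB* and *ACAA2* below. The trends with length and GC content fitted for each library were then taken out, which left a rho of −0.08 with length. All 10 genes kept their direction in that fit. *HADHB* stayed at −0.13 and *ACADVL* was at 0.18, while *HADHA* moved from −0.15 to −0.10, *ECHS1* from −0.15 to −0.09 and *SLC25A20* from −0.14 to −0.05 (adjusted p from 0.335 to 0.856 over the 10 genes from edgeR). *CPT2* moved to −0.20, but the length and GC content used for it are those of a transcript with 1 exon.

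**Figure D3:**
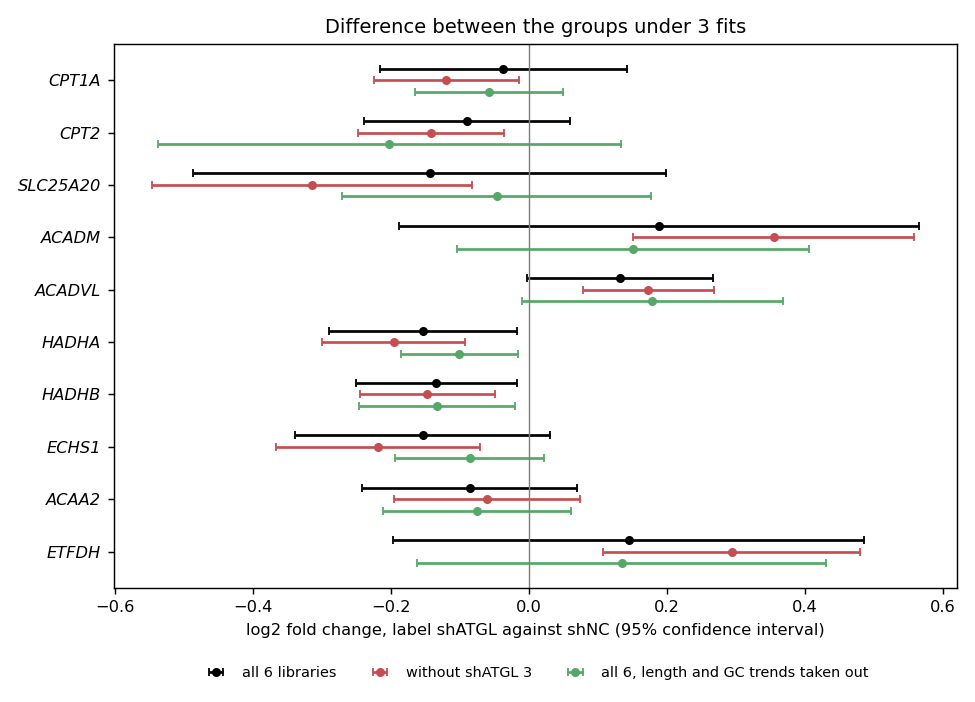
Log2 fold change of the libraries labelled shATGL against shNC (horizontal axis) with 95% confidence intervals from edgeR for the 10 genes, in the fit of all 6 libraries (black), without shATGL 3 (red) and with length and GC trends taken out (green). In black, the intervals of *HADHA* and *HADHB* alone lie on one side of 0.

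The intervals are given for each gene on its own and cover only the spread between these libraries. In the fit of all 6 libraries, the 95% confidence intervals of the 10 genes reached from 71.4% of the shNC level at the lowest, for *SLC25A20*, to 148% at the highest, for *ACADM*, so that a fold change of 2 in either direction lay outside each of them. For *HADHB* the interval was 84.0% to 98.8% and for *CPT1A* 86.1% to 110% of the shNC level.

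The steps of the pathway differed far more among themselves than between the groups. Levels between genes were compared as CPM per kilobase of annotated exon, over the 6 libraries. *HADHA* was the highest at 129 ± 8.85 CPM per kilobase (SD, n = 6), 1.66 times the next. *ECHS1* at 77.3 ± 6.59 and *ACADVL* at 72.5 ± 4.47 CPM per kilobase followed, with ranges that overlapped each other. *HADHB* was at 49.7 ± 2.60 CPM per kilobase, below all of these and 2.20 times above the next, and did not overlap its neighbours. *ACADM* (22.6 ± 3.97) and *CPT1A* (19.9 ± 1.23 CPM per kilobase) overlapped. The low end was formed by *SLC25A20* (10.9 ± 1.55), *CPT2* (8.76 ± 0.438), *ACAA2* (8.25 ± 0.342) and *ETFDH* (7.95 ± 1.17 CPM per kilobase), in which each overlapped the next. The carnitine shuttle, its transferases and its exchanger, therefore stood below the trifunctional protein and *ACADVL* in transcript level. Even *ETFDH* was above 71.8% of the 18566 tested genes with a length, and *HADHA* above 98.5%. With the longest transcript as the length, 5 of the 10 genes kept their rank. *ACADVL* (150 CPM per kilobase) then stood above *ECHS1* (77.3), and *CPT2* (20.2) above *SLC25A20* (11.5).

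**Figure D4:**
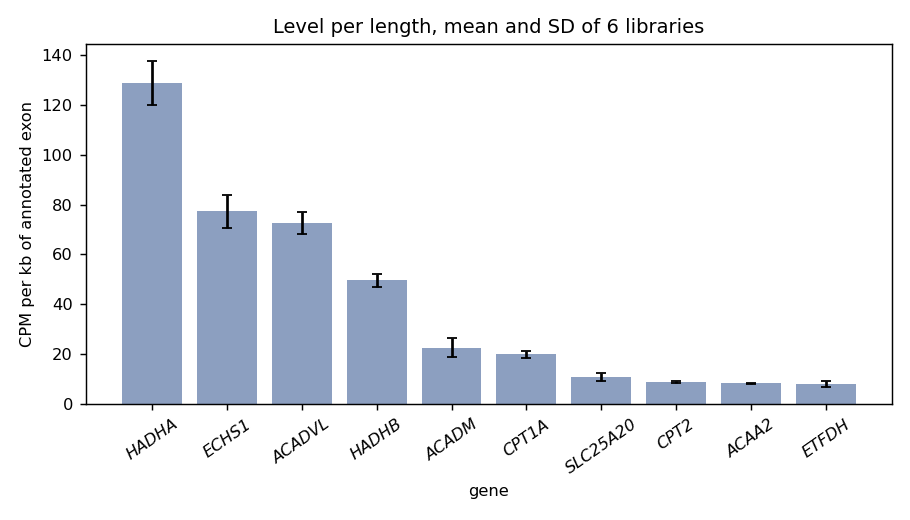
Level of the 10 genes in CPM per kilobase of annotated exon (vertical axis, from 0), as the mean (bars) and SD (lines) of the 6 libraries, ordered from high to low. *HADHA* stands alone at 129, and the last 4 genes lie between 7.95 and 10.9.

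The other genes of fatty acid oxidation were taken from a list of 67 in 8 groups, of which 61 were tested. None had an adjusted p-value under 0.05 with edgeR, while 1 (1.64%) had one with DESeq2, 7 (11.5%) with voom and 12 (19.7%) in the edgeR fit without shATGL 3. Over all genes these shares were 0.41%, 10.8% and 14.0%. At an unadjusted p-value under 0.05, 2 lay higher and 5 lay lower under the label shATGL, next to 5.77% and 5.94% of all genes. Of the 61, 21 had a log2 fold change above 0 and 40 below, with a median of −0.03, and in 13 the groups did not overlap, next to 17.3% of all genes.

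The list put auxiliary enzymes of the mitochondrial pathway in a group with other enzymes of beta-oxidation, apart from the acyl-CoA dehydrogenases. The genes of this group were all below 0, 10 of 10, next to 48.1% of all genes below 0. Their median was −0.14, and 3 of them were under the unadjusted threshold, next to 5.94% of all genes lower at that threshold. The trend with transcript length was not taken out of these values. *ECI2*, an isomerase named after its values were seen, was at −0.01 and at 0.11 without shATGL 3. *ECH1*, which moves double bonds of unsaturated chains, measured 202, 200 and 221 CPM in shNC, against 169, 173 and 191 CPM for the libraries labelled shATGL, a log2 fold change of −0.23 (edgeR adjusted p = 0.392). It was also the highest of its group per kilobase, at 78.1 CPM. *HSD17B10*, a short-chain hydroxyacyl-CoA dehydrogenase that is also part of mitochondrial RNase P, had a log2 fold change of −0.23 and overlapping groups, and the thioesterase *ACOT13* had one of −0.25 (edgeR adjusted p = 0.411 and 0.421). The tested genes of electron transfer other than the member *ETFDH*, which was at 0.14, were all below 0. *ETFA*, a subunit of the flavoprotein that feeds *ETFDH*, averaged 141 ± 1.38 (SD, n = 3) CPM in shNC, against 133 ± 9.08 (SD, n = 3) CPM for the libraries labelled shATGL. *ETFBKMT*, which methylates the other subunit, measured 1.95, 2.42 and 2.27 CPM in shNC, against 1.07, 0.718 and 0.399 CPM for the libraries labelled shATGL. Its groups were separate, with a log2 fold change of −1.59 (SE 0.34, edgeR adjusted p = 0.392).

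Among the acyl-CoA synthetases, which activate the chains, *ACSL5* was the highest per kilobase (14.8 CPM) with a log2 fold change of −0.11, and *ACSF3*, a malonyl-CoA synthetase, had one of 0.20 with separate groups (edgeR adjusted p = 0.543 and 0.399). Of the other carnitine genes, 0 of 6 tested were under the unadjusted threshold, and *CRAT*, carnitine acetyltransferase, was at 36.3 CPM in both groups. The other acyl-CoA dehydrogenases and the enzymes of the odd-chain end gave 0 of 8 and 0 of 4, led per kilobase by *ACAD9* (log2 fold change −0.11) and *PCCB* (−0.17). In peroxisomal oxidation, the thiolase *ACAA1* averaged 52.3 ± 2.08 (SD, n = 3) CPM in shNC, against 44.2 ± 2.88 (SD, n = 3) CPM for the libraries labelled shATGL (log2 fold change −0.24, edgeR adjusted p = 0.392), and *SCP2*, the highest of the group per kilobase, had a log2 fold change of −0.02. Of the regulators, *ACACB*, which makes the malonyl-CoA that restrains *CPT1A*, averaged 11.7 ± 1.09 and 14.6 ± 1.43 CPM (SD, n = 3 each), with separate groups and a log2 fold change of 0.32 (edgeR adjusted p = 0.399). *ESRRA*, a nuclear receptor of mitochondrial genes, had a log2 fold change of −0.09. *PPARGC1A* was among the 6 genes that did not pass the filter on low counts.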

How the data were processed

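Reads were cleaned with FASTP by the authors, who deposited raw counts per Ensembl gene for the 6 libraries, without normalization. The aligner, counting tool, strand setting and annotation are not given in the sources used here. Labels and methods differ on the extraction kit. The submitters' processing notes name mm10, a mouse build, although the identifiers are human. Names came from a gene name table and GENCODE 29, and 58254 identifiers had a position there (GRCh38), which is not the counted annotation.

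The counts were analysed with edgeR 4.0.16 (filterByExpr with a minimum count of 10 and a minimum total of 15, TMM, quasi-likelihood test, Benjamini-Hochberg adjustment) in R 4.3.3. Alternatives used limma 3.58.1 and DESeq2 1.42.0. Genes were called at the thresholds of the study, a 2-fold change with an adjusted p under 0.05. Ratios were tested by exact two-sided permutation over 20 relabellings. The tests were checked on simulated counts. Length and GC content trends were fitted per library with splines of 4 degrees of freedom. Promoter windows are from RefSeq, where *ETFDH* had no match. Between 59674064 and 74808280 reads per library were counted.

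The members and lists were chosen with earlier results of these data known. The genes named are the 10 members, *PNPLA2*, genes overlapping a member, processed copies, and the 3 genes most like the mean pattern of the members. List members with an unadjusted p under 0.05 or the highest level per length of their group are also named. *PDGFRB* and *PPARGC1A* were named after their values were seen. A further marker list is not reported here.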

Additional observations from a re-analysis of the deposited data

How the results depend on the processing

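The number of genes called was 1 with all 6 libraries. Upper-quartile scaling gave 3 calls, 1 of them higher and 2 lower. DESeq2 gave 23, with 17 higher, limma voom gave 266, with 241 higher, and it was 0 with the replicate number as a block in edgeR, where 3317 genes had an unadjusted p-value under 0.05. When single libraries were dropped, the count lay between 0 and 319. The 319 came without shATGL 3, and the 0 without shNC 3 or without shATGL 1, where 1113 and 1052 genes had an unadjusted p-value under 0.05. The number of the 10 members at an unadjusted p-value under 0.05 was 2 as reported (11.7% of all genes), 0 with upper-quartile normalization (10.2%) and with DESeq2 (7.01%), 8 with voom (30.6%), 4 with the replicate block (17.3%) and 5 with the block and the length and GC correction together (15.9%). The number was 3, with *ACADVL* added, when at least 10 counts were required in every library (13.2%). It went from 0 to 9 across the fits that left out one library, 9 without shATGL 3, where 28.8% of all genes passed, and 0 when any of the other 5 was dropped, where 5.17% to 9.27% did. The cause of these changes was not tested.

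Of the 15 alternatives, *CPT1A* kept its direction in 14, and was at 0.004878 without shATGL 2 (from −0.1199 to 0.004878 over the libraries left out). The other 9 members kept theirs in all 15. *PNPLA2* was at 0.000555 with the length and GC correction, at 0.000167 with that correction and the replicate block, and from −0.02403 to 0.03272 over the libraries left out. The difference in the log2 ratio of *ACADVL* to *ACADM* was −0.04 as reported and went from −0.186 to 0.07377 over the libraries left out, above 0 without shNC 3, shATGL 1 or shATGL 2. With 10 counts added, a small number beside the counts of these genes, none of the 4 ratios changed its direction. The replicate block could not change one, as it leaves the difference of the group means the same.

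Libraries of the same number had correlations of their deviations of 0.0605, 0.231 and 0.343 for numbers 1, 2 and 3 over 13940 genes. The match by number was the best one for shNC 2 and shNC 3. With the other numbers, shNC 2 had 0.19 and −0.276, and shNC 3 had −0.2335 and −0.29. By contrast, shNC 1 correlated better with shATGL 2 (0.081) than with its own number. The labels do not say that the numbers pair the samples, and the fit reported first had no block. The lowest count of a member in a library was 1242. The effect of depth was not tested.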

Other observations

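The 3 genes most like the mean pattern of the 10 members, among 9285 with a mean of at least 10 CPM, were *SRSF6*, *USF1* and *PDIA3*, with root mean square differences of 0.0131, 0.0132 and 0.0139 between their deviations on the log2 scale over the 6 libraries. The mean deviation of the members itself went from −0.03 to 0.02, while a single member reached 0.33 (*ACADM* in shATGL 2). The 3 genes are thus like a nearly flat mean and not like each member. *USF1* measured 150, 154 and 151 CPM in shNC 1, 2 and 3, against 149, 148 and 146 CPM for the libraries labelled shATGL. *ACAA2P1*, a transcribed processed copy of *ACAA2*, held between 9 and 31 counts per library, and *SLC25A20P1* held 0.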
